A study of Homo sapiens with 4 samples.

Results

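The adhesion and orphan G protein-coupled receptor genes were compared between MDAMB231, a triple-negative human breast cancer line, and MDAMB231Br, its brain metastatic derivative. The rule reads the symbol and no measured value: it takes every named row that begins with ADGR and a family letter and number, or that reads GPR with a number and at most a letter after it, or GPRC5A to GPRC5D. The rule found 52 of the 15279 named rows. Of these, 15 are adhesion receptors, 22 are receptors known by a GPR number, 5 are class C orphans including GPRC5A, GPRC5B and GPRC5C, and 9 carry a GPR name but lie outside the classical receptor families. The remaining row, ADGRD1-AS1, is an antisense RNA and was kept apart from the receptors. The adhesion receptors CELSR1, CELSR2 and CELSR3 carry other symbols and fall outside the rule.

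Total RNA of each line was sequenced in 2 libraries, called A and B in the order of their columns, from cells grown in DMEM with 10% FBS and PS. No treatment is given for either line. MDAMB231Br is a selected subline of the same tumour line, so the comparison is of 2 cultured lines and holds no brain tissue. Whether A and B of a line were grown as separate cultures is not given, so the spread that enters the p-values is that of the sequenced libraries and could be purely technical. Reads assigned to named genes ranged from 25835225 to 30771290 per library. The marker genes listed for the line were high in all libraries (6 of 6, summed level 5544 to 6365 CPM in parental and 9587 to 11264 CPM in brain metastatic cells, CPM being reads scaled to the library's total). Among them CAV1 was lower in brain metastatic cells, at 1065 and 1021 CPM in parental and 400.1 and 357 CPM in brain metastatic libraries, and AXL did not pass. Of the markers listed as low or absent, ESR1 and CDH1 were each below 1 CPM, EPCAM lay at 12.7 and 14.9 CPM in parental and 3.38 and 8.28 CPM in brain metastatic libraries, and ERBB2 lay at 35.7 to 47.2 CPM. Of the 6 leukocyte markers none had a row, and of the 5 markers each listed for astrocytes, microglia, oligodendrocytes and neurons a single marker had a row (ALDH1L1, CSF1R, MBP and SYT1), as did COL1A1 of 6 fibroblast markers and PECAM1, CDH5 and KDR of 5 endothelial ones. The summed level of the endothelial markers was 4.78 to 8.53 CPM in parental and 26.6 to 30.0 CPM in brain metastatic cells, with KDR rising and CDH5 at or below 0.178 CPM, and that of the fibroblast marker 2.98 to 3.57 CPM against 12.6 to 17.2 CPM. MBP lay at 88.7 to 95.4 CPM in parental and 139 to 146 CPM in brain metastatic cells, SYT1 at 1.72 to 2.43 and 3.59 to 6.93 CPM, ALDH1L1 at 0.715 to 1.23 and 1.20 to 1.81 CPM, and CSF1R at 10.0 to 12.6 and 1.25 to 2.01 CPM. The part of these markers in the receptor results was not tested. The brain metastatic libraries differed more from each other than the parental ones did: the median gap over the tested receptor rows, on the log2 scale, was 0.23 between the parental libraries and 0.49 between the brain metastatic libraries, against 0.26 and 0.38 over all tested genes.

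G protein-coupled receptors are membrane proteins with a bundle of membrane-spanning helices that switch on heterotrimeric G proteins inside the cell. Adhesion receptors add a long extracellular part that binds matrix or proteins on neighbouring cells, and most cut themselves at a site next to the membrane, leaving a tethered stretch that can activate the receptor. Orphan receptors are those whose natural ligand is unknown or disputed. Members of both groups are studied in tumour cells for their links to cell adhesion, migration and sensing of acid, zinc or lipids.

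Of the 52 rows, 46 passed the filter on low counts and were tested, and 6 (ADGRF4, GPRC5C, GPR4, GPR27, GPR78 and GPR143) did not. In brain metastatic cells 7 members were higher, 6 were lower and 33 did not pass at an adjusted p below 0.05 (limma-trend on log2 values, Benjamini-Hochberg adjustment over all 14424 tested genes). Among all tested genes 14.4% were called, 8.61% higher (1242 genes) and 5.80% lower (837 genes). After a correction for transcript length and GC content this split was 1677 higher and 1798 lower, with 10 receptor genes higher and 9 lower. Fewer cells with a transcript and less of it per cell cannot be told apart in these bulk libraries. The median log2 fold change of the tested members was 0.48, against 0.01 for all tested genes, and the median absolute log2 fold change was 0.77 against 0.47. Members that were higher were the adhesion receptor genes ADGRE5 and ADGRL2, the orphan and sensing receptor genes GPR158, GPR37, GPR132 and GPR39, and GPR137B. Those that were lower included ADGRF1, ADGRB2, ADGRD1, ADGRG6 and GPR176. The libraries of the lines did not overlap for 36 of the 46 tested members, 23 with brain metastatic cells higher and 13 with them lower, whereas 61.3% of all tested genes were without overlap. Every called member belonged to these 36.

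**Figure D1:**
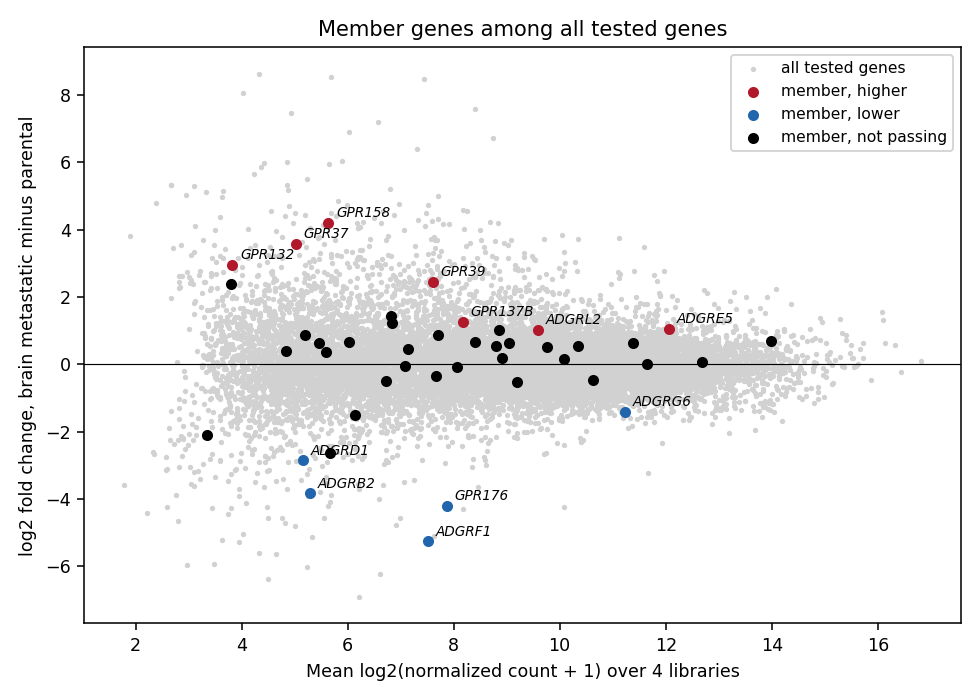
Log2 fold change (brain metastatic minus parental, vertical axis) against the mean log2(normalized count + 1) over the 4 libraries (horizontal axis). Grey points are the 14424 tested genes, red and blue points 7 members called higher and 5 called lower, labelled by gene, and black points 31 members that did not pass; called members span -5.26 (ADGRF1) to 4.20 (GPR158).

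The 4 sequences below lie just upstream of the annotated start of the neighbouring adhesion receptor genes ADGRF1 and ADGRF5, whose fold changes had opposite signs, and of the largest increase (GPR158) and the second largest decrease (GPR176) among the receptors. They are the 250 bases before the start of each gene in RefSeq (GRCh38.p14), written 5′ to 3′ on the gene's strand, with CG dinucleotides in capitals. ADGRF1 lies on the minus strand at chr6:47042333-47042582, ADGRF5 on the minus strand at chr6:46954940-46955189, GPR158 on the plus strand at chr10:25174751-25175000 and GPR176 on the minus strand at chr15:39920267-39920516.
ADGRF1: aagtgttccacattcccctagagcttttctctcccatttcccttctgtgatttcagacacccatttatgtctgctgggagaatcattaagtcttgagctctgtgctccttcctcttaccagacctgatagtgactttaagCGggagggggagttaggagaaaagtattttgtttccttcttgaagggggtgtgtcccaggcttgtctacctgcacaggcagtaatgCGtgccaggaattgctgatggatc
ADGRF5: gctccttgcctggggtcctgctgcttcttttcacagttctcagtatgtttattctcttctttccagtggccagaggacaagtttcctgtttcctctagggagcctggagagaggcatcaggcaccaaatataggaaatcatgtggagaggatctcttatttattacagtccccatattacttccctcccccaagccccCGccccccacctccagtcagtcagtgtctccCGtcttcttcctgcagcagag
GPR158: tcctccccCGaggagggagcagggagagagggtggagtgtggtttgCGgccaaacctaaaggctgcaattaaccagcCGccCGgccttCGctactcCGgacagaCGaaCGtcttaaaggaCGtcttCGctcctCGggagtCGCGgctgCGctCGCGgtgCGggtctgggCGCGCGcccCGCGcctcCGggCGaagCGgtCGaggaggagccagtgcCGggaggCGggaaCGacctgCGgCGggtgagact
GPR176: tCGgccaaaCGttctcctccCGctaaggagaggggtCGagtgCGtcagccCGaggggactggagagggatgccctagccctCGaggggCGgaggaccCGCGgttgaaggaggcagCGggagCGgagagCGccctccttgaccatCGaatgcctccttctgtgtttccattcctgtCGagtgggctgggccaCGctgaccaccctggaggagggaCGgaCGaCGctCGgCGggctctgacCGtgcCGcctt
The upstream stretches of ADGRF1 and ADGRF5 hold 2 CG dinucleotides each, that of GPR158 holds 31 and that of GPR176 holds 23. The median was 20 over the 35 members with a RefSeq promoter and 11 over all 27305 promoters, and the median GC content was 66.0% against 58.0%. ADGRF1 and GPR176, which both fell, thus have a CG-poor and a CG-rich stretch. The letters GGGCGG, the GC box, occurred on either strand in 25 of the 35 members, ADGRF5, GPR158 and GPR176 included, and in 42.3% of all promoters. The cyclic AMP response element TGACGTCA occurred in GPR3 alone (1.77% of all promoters), and the AP-1 letters TGANTCA in GPR137B and ADGRF4 (6.60% of all promoters). The TATA box letters TATAAA occurred in GPR15 and GPR108 (11.1% of all promoters). Searches covered both strands, and GGGCGG itself contains a CG.

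Levels of different genes were compared as CPM per kilobase of the longest annotated transcript. On that scale ADGRF5, which controls the surfactant pool of the lung, stood highest in both lines, at 87.4 and 79.7 CPM per kilobase in the parental libraries, against 136 and 125 in the brain metastatic ones. The receptor alone took 28.7% to 29.3% of the members' reads in parental and 35.3% to 38.3% in brain metastatic cells. Next came ADGRE5 (30.1 to 40.5 CPM per kilobase in parental cells) and GPRC5A (31.4 to 34.7), whose parental ranges overlapped, followed by ADGRG6 (20.1 to 22.3) and GPR108 (17.8 to 21.7), which overlapped as well. In brain metastatic cells ADGRE5 (59.6 to 84.1) stood clear of GPRC5A (27.1 to 42.2), GPR108 (25.9 to 30.1) and ADGRA3 (26.5 to 27.0). GPR108 overlapped both of its neighbours in this order. ADGRG6 had fallen to 7.56 to 7.97 CPM per kilobase. At the other end, 3 receptors (GPR27, GPR78 and GPR4) had at most 4 reads in any library. Summed over the class, adhesion receptors accounted for 995 and 897 CPM in the parental and 1258 and 1298 CPM in the brain metastatic libraries. ADGRF5, which did not pass, went from a mean of 485 to 759 CPM and makes up most of that difference, while 4 adhesion receptors were called lower and 2 higher.

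Of the 14 adhesion receptors tested, 2 were higher and 4 lower (42.9% called, against 14.4% of all tested genes), and 8 did not pass. In subfamily F, which sits in a short stretch of chromosome 6, ADGRF1 and ADGRF5 had fold changes of opposite sign. ADGRF1, a receptor for the brain lipid synaptamide, had normalized counts (reads divided by a size factor for each library) of 1058 and 1202 in the parental libraries, against 21.1 and 38.1 in the brain metastatic ones. Both brain metastatic libraries were far below both parental ones, a 38.1-fold lower mean (log2 fold change -5.26 ± 0.355 SE, n = 2 per line, limma adjusted p = 0.000221). ADGRF5 measured 13338 and 12372 in parental and 21363 and 19904 in brain metastatic cells. Its libraries did not overlap, but the 1.61-fold higher mean did not pass (log2 fold change 0.68 ± 0.215 SE, adjusted p = 0.0704 with limma), although DESeq2 called it (adjusted p = 0.0485). It was not called by edgeR (adjusted p = 0.0908), limma-voom (0.0802) or limma after length and GC correction (0.194). ADGRF4, an epithelial relative, was removed by the filter because a single library was high, with 5 and 8 reads in the parental libraries, 5 in brain metastatic A and 85 in brain metastatic B. Between ADGRF1 and ADGRF4, in RefSeq order of protein-coding genes, lie TNFRSF21 and CD2AP, which did not pass (log2 fold changes 0.27 and -0.54, limma adjusted p = 0.425 and 0.135).

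The EGF-domain and latrophilin subfamilies contained the increases. ADGRE5, known as CD97 and bound by the complement regulator CD55, measured 3389.7 and 2563 in parental and 5126 and 7342 in brain metastatic cells. The line means differed 2.09-fold without overlap (log2 fold change 1.06 ± 0.266 SE, n = 2 per line, limma adjusted p = 0.0355). ADGRE2, a myeloid relative with near-identical EGF domains whose reads may be shared with ADGRE5, lay at 38.8 to 45.2 and 53.8 to 54.0 (adjusted p = 0.56 with limma). ADGRL2, a latrophilin that binds teneurins and FLRT proteins across cell contacts, measured 489 and 589.8 in parental and 1127 and 1078 in brain metastatic cells. This was a 2.04-fold higher mean (log2 fold change 1.04 ± 0.242 SE, n = 2 per line, limma adjusted p = 0.0281), and the spread within each line was small beside the gap. Its relative ADGRL1 had a log2 fold change of 0.53 and did not pass (adjusted p = 0.195 with limma).

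ADGRG6, a receptor for type IV collagen and the prion protein that is required for myelination by Schwann cells, was lower. It measured 4115 and 3769 in parental and 1511 and 1455 in brain metastatic cells, the tightest replicates among the called adhesion receptors that fell. The mean was 2.66-fold lower (log2 fold change -1.41 ± 0.216 SE, n = 2 per line, limma adjusted p = 0.00559). ADGRG1, a receptor for collagen III and transglutaminase 2, measured 656 and 797 against 809 and 1322 and did not pass (adjusted p = 0.271 with limma). ADGRG2, best known from the epididymis, had 8.53 and 2.91 in parental cells, 13.4 in brain metastatic A and 68.9 in brain metastatic B (adjusted p = 0.0947 with limma), so its log2 fold change of 2.38 came mainly from library B.

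ADGRB2, of the brain angiogenesis inhibitor subfamily with thrombospondin repeats, had normalized counts of 137 and 156 in parental and 13.4 and 6.36 in brain metastatic cells. Its mean was 14.8-fold lower with no overlap (log2 fold change -3.83 ± 0.473 SE, n = 2 per line, limma adjusted p = 0.00247). ADGRD1, a receptor that raises cyclic AMP and is studied in glioblastoma, measured 103 and 88.3 in parental cells, 4.80 in brain metastatic A and 29.7 in brain metastatic B. It was lower in both brain metastatic libraries (log2 fold change -2.85 ± 0.727 SE, n = 2 per line, limma adjusted p = 0.0369), with log2 differences of -4.06 (A) and -1.65 (B) when each was set against the parental libraries. The antisense RNA ADGRD1-AS1 had the same order of libraries, at 142 and 112 in parental, 6.72 in brain metastatic A and 53.0 in brain metastatic B, and did not pass (log2 fold change -2.63 ± 0.797 SE, adjusted p = 0.0629 with limma). It passed in 7 of 14 alternatives, among them DESeq2 (adjusted p = 0.0163), limma-voom (0.0331) and the length and GC correction (0.0227). In the GENCODE 29 models 8.54% of the exonic bases of ADGRD1-AS1 overlap ADGRD1, and without a stated strand setting reads of that overlap cannot be told apart.

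In subfamily A, ADGRA2, which works with RECK as a co-receptor for WNT7 in brain endothelium, was low, at 16.2 and 25.2 in parental and 2.88 and 5.30 in brain metastatic cells. It did not pass with limma (log2 fold change -2.10, adjusted p = 0.0586), DESeq2 (0.137) or limma after TMM scaling (0.0516). ADGRA2 did pass in 6 of the 13 alternatives that tested it, among them edgeR's quasi-likelihood test (adjusted p = 0.0373) and limma-voom (0.0467). Of its exonic bases, 23.1% overlap BRF2 on the other strand. ADGRA3, an orphan relative, measured 2284 and 1973 in parental and 3260.2 and 3379 in brain metastatic cells, without overlap and without passing (log2 fold change 0.64, adjusted p = 0.0867 with limma). ADGRV1, the very large receptor of inner ear hair cells, had a log2 fold change of 1.23 (adjusted p = 0.0712 with limma). DESeq2 called it (adjusted p = 0.0364), and with ADGRG2 (0.0336) and ADGRF5 it called 5 adhesion receptors higher. Neither edgeR nor limma-voom called ADGRV1 (adjusted p = 0.0615 and 0.0733) or ADGRG2 (0.0555 and 0.106). Among the 3 CELSR genes outside the rule, CELSR1 was higher (2.22, limma adjusted p = 0.00397), CELSR2 was lower (-2.44, limma adjusted p = 0.00359) and CELSR3 did not pass (0.87, limma adjusted p = 0.185), all as log2 fold changes.

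**Figure D2:**
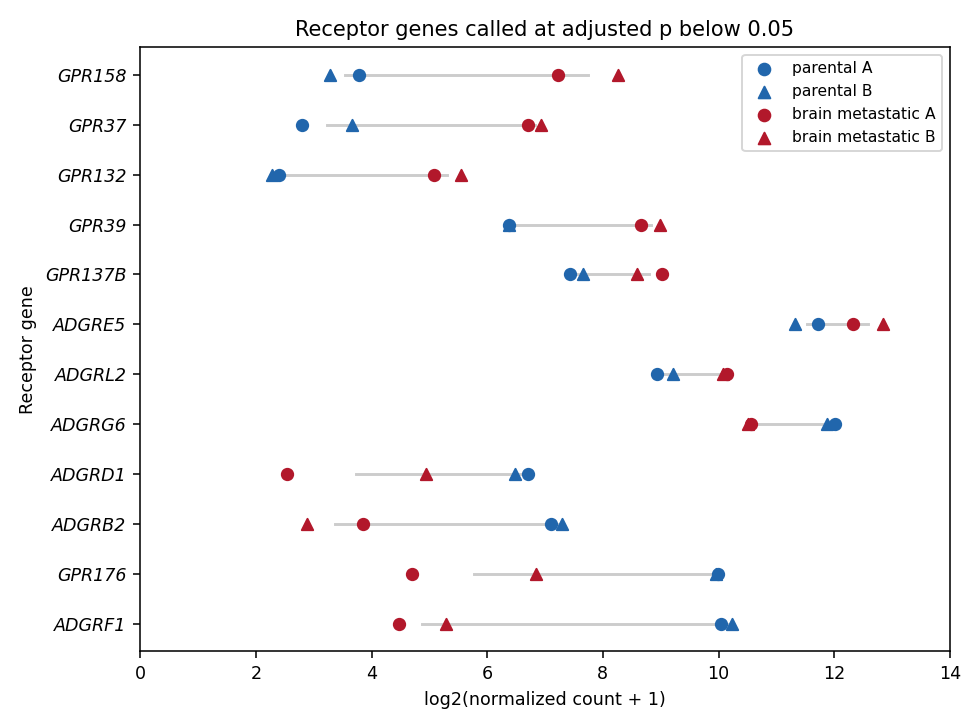
Log2(normalized count + 1) in each library (horizontal axis) for 12 called receptor genes (vertical axis), with circles for library A, triangles for library B, blue for parental and red for brain metastatic cells, and a grey line between the line means. For no gene do the colours overlap, and the red points of GPR176 and ADGRD1 lie farthest apart.

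The receptors known by a GPR number had 18 of 22 rows tested. Of these, 3 were higher and 2 lower (27.8% called, against 14.4% of all tested genes), while 13 did not pass. GPR37, an orphan receptor of oligodendrocytes and neurons that is a substrate of parkin, had 5.97 and 11.6 in parental and 104 and 121 in brain metastatic cells. The mean was 12.7-fold higher (log2 fold change 3.59 ± 0.477 SE, n = 2 per line, limma adjusted p = 0.00331), with both brain metastatic libraries close together. GPR39, a zinc-sensing receptor, measured 81.9 and 82.5 in parental and 405 and 505 in brain metastatic cells. The parental libraries were almost equal, and the mean was 5.54-fold higher (log2 fold change 2.45 ± 0.294 SE, n = 2 per line, limma adjusted p = 0.0022). In the GENCODE 29 models 34.8% of the exonic bases of GPR39 overlap LYPD1 on the other strand, a gene not analysed here, and unstranded reads of the 2 genes cannot be told apart.

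GPR132, tied to sensing of lipids and acid, had 4.27 and 3.88 in parental and 32.7 and 45.6 in brain metastatic cells. Its level stayed low in both lines, at 0.393 CPM per kilobase in brain metastatic cells, with a 9.60-fold higher mean (log2 fold change 2.97 ± 0.542 SE, n = 2 per line, limma adjusted p = 0.0113). GPR4, an acid-sensing receptor, had no parental read and 4 reads in each brain metastatic library. Against the limit of 3 reads over the parental group that a count of 0 allows, GPR4 was 2.88-fold higher. This figure takes the brain metastatic reads as exact, so it is not a full lower bound for counting error. Of the exonic bases of GPR4, 3.62% overlap OPA3, which rose (log2 fold change 1.10).

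GPR176, an orphan receptor of the circadian pacemaker, was the eighth most abundant member per kilobase in parental cells and ranked 35 in brain metastatic cells. It had normalized counts of 1017 and 987 in parental cells, 25.0 in brain metastatic A and 114 in brain metastatic B. Both brain metastatic libraries were well below the parental ones but differed from each other, and the mean was 14.4-fold lower (log2 fold change -4.20 ± 0.601 SE, n = 2 per line, limma adjusted p = 0.00427). Set against the parental libraries one at a time, A differed by -5.27 and B by -3.12 on the log2 scale.

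The remaining numbered receptors described here did not pass with limma-trend, although GPR135 was called by DESeq2 (adjusted p = 0.0139) and after length and GC correction (0.0448), and GPR157 after that correction (0.0279). Neither edgeR nor limma-voom called GPR135 (adjusted p = 0.0567 and 0.103). Positive log2 fold changes were seen for GPR135 (1.44), GPR63 (0.87), GPR75, a receptor linked to body weight (0.86), GPR15, a homing receptor of T cells (0.68), the chemerin receptor gene GPR1 (0.65), GPR173 (0.45), GPR19 (0.40) and GPR161, a brake on Hedgehog signalling at the primary cilium (0.16). Negative ones were seen for GPR157 (-0.52), GPR153 (-0.48), GPR3, which raises cyclic AMP without a ligand (-0.35), and GPR160 (-0.08). The libraries of the lines overlapped for GPR75, GPR15, GPR19, GPR161 and GPR160. Signs were not stable for GPR161, which turned negative after correction for length and GC, or for GPR75 and GPR160, which changed sign when a library was left out. GPR135 had 75.1 and 60.1 in parental, 107 in brain metastatic A and 318 in brain metastatic B (adjusted p = 0.0946 with limma), so that its difference also came mainly from library B. Of the exonic bases of GPR135, 4.06% overlap L3HYPDH on the same strand. L3HYPDH had a log2 fold change of 0.90 and did not pass (limma adjusted p = 0.0757). It too was higher in B (1.18 from the parental mean) than in A (0.63). The part of this overlap was not tested. GPR27 had 1 read in all, GPR78 had 1 parental and 5 brain metastatic reads, and GPR143, the ocular albinism gene of melanosomes, had 8 and 16.

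Of the class C orphans 4 were tested, and 1 was higher (25.0% called, against 14.4% of all tested genes). This share rests on 1 gene and is no result about the class. None was lower with limma, edgeR, DESeq2 or limma-voom, and 1 (GPRC5B) was lower at an unadjusted limma p under 0.05. GPR158, a neuronal receptor for glycine that binds RGS7, had normalized counts of 12.8 and 8.73 in parental cells, 148 in brain metastatic A and 305 in brain metastatic B. It showed the largest increase of the 46 tested members, a 21.0-fold higher mean (log2 fold change 4.20 ± 0.476 SE, n = 2 per line, limma adjusted p = 0.00174). GPRC5A, a retinoic acid-inducible gene, measured 6698 and 6173 in parental cells, against 8378 (library A) and 5462 (library B) in brain metastatic cells. The brain metastatic libraries lay on either side of the parental ones (log2 fold change 0.07 ± 0.261 SE, adjusted p = 0.871 with limma), and the sign was negative without brain metastatic A and after correction for transcript length and GC. GPRC5B had 120.3 and 113 in parental, 24.0 in brain metastatic A and 68.9 in brain metastatic B (log2 fold change -1.50, adjusted p = 0.0867 with limma), and was called after length and GC correction (0.00907). Of its exonic bases, 26.7% overlap IQCK on the other strand, which did not pass (log2 fold change 0.09). GPRC5C had 5 parental and 14 brain metastatic reads, 12 of them in library B.

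The GPR-named proteins outside the classical families, which act mostly at the Golgi or the lysosome, numbered 9, all tested. With limma-trend 1 was higher (11.1% called, near the 14.4% of all tested genes). None was lower with limma, edgeR, DESeq2 or limma-voom, nor at an unadjusted limma p under 0.05. GPR137B, a lysosomal membrane protein that regulates mTORC1, measured 171 and 202 in parental and 517 and 384 in brain metastatic cells. The mean was 2.42-fold higher with no overlap (log2 fold change 1.26 ± 0.292 SE, n = 2 per line, limma adjusted p = 0.0271). Its relatives GPR137C (0.68) and GPR137 (0.20) and the lysosomal cholesterol sensor gene GPR155 (1.01) did not pass with limma-trend. DESeq2 called GPR155 (adjusted p = 0.0389) and so 2 members of this class, whereas edgeR (0.0825) and limma-voom (0.0880) did not call GPR155. Both GPR155 and GPR137C were higher in brain metastatic A than in B. GPR108, a Golgi protein, measured 959 and 1191 in parental and 1673 and 1456 in brain metastatic cells, without overlap and without passing (log2 fold change 0.55, adjusted p = 0.161 with limma). GPR107 (0.01, negative with TMM scaling, limma-voom and the length and GC correction, and without parental B or brain metastatic B) and GPR180 (-0.47) did not pass either. The Golgi pH regulator genes GPR89A (-0.03) and GPR89B (0.63) are near-identical copies whose reads may be divided between them, and GPR89A changed sign without brain metastatic A.

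**Figure D3:**
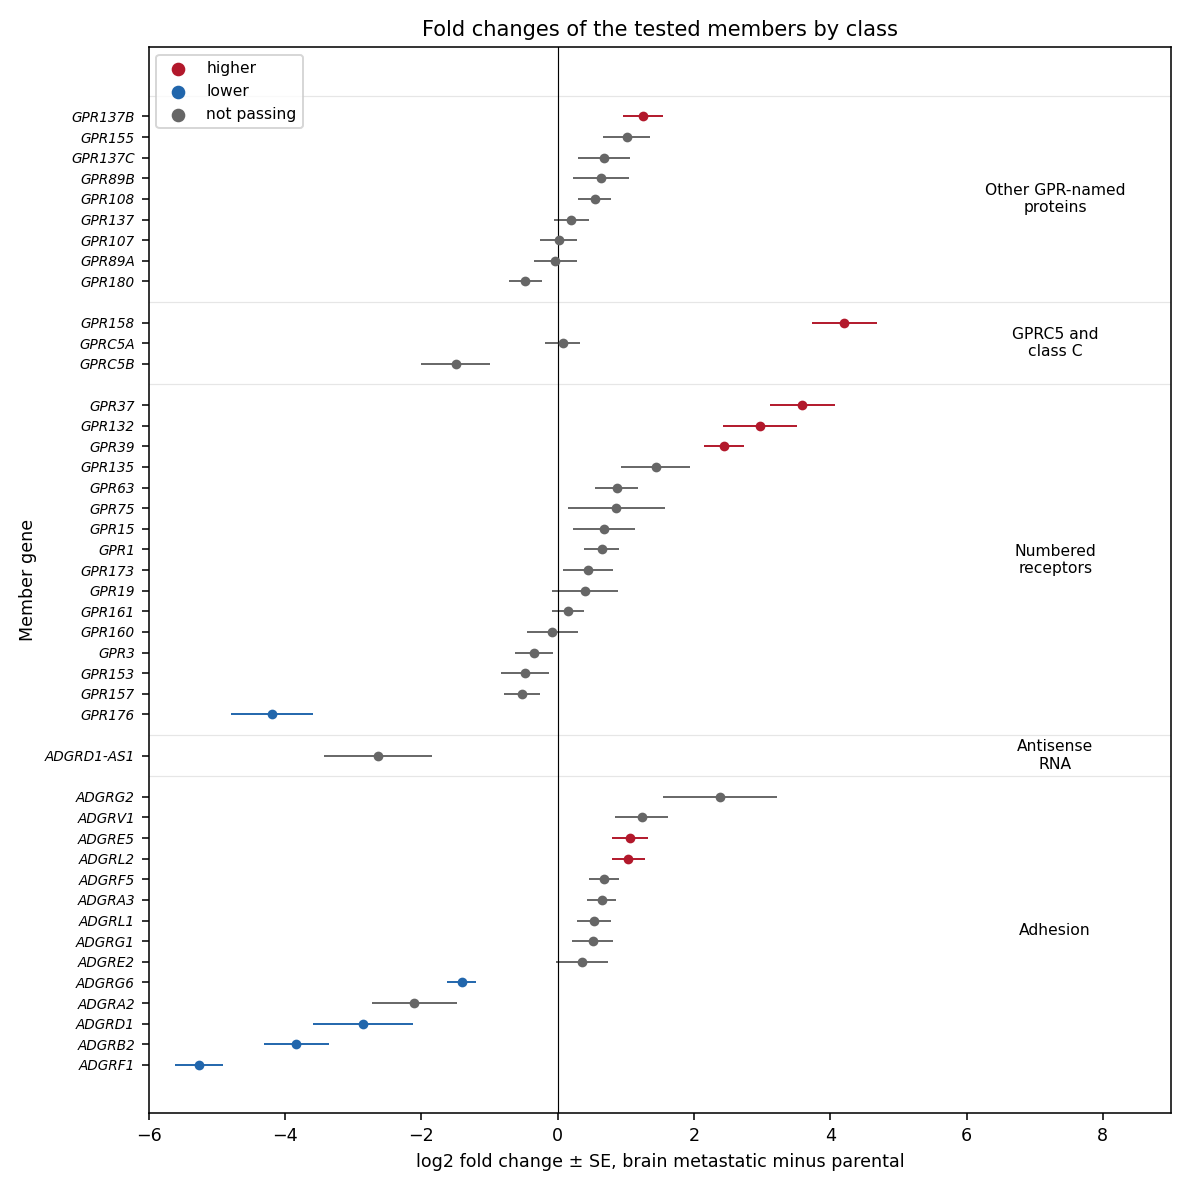
Log2 fold change (brain metastatic minus parental) with its standard error for 43 tested members, grouped by class, with red for higher, blue for lower and grey for not passing at an adjusted p below 0.05. Called members lie on both sides of 0 among adhesion and numbered receptors, with 2 higher and 4 lower in the former and 3 higher and 1 lower in the latter.

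The difference between the brain metastatic libraries touched several of these genes. Of the 46 tested members, 31 (67.4%) were higher in brain metastatic B than in A, against 50.03% of all tested genes. Relative to the parental mean on the log2 scale, ADGRG2 differed by 1.24 in library A and 3.52 in B, GPR135 by 0.66 and 2.23, and GPR75 by -0.06 and 1.78. GPR137C and GPR155 showed the other order, with 1.23 in A and 0.13 in B, and 1.36 and 0.67. The members with similar values in both libraries included ADGRG6 (-1.38 and -1.44), ADGRL2 (1.07 and 1.00), GPR37 (3.48 and 3.70) and GPR39 (2.29 and 2.61). All 13 called members kept their sign in each library, which follows from their libraries not overlapping and is no separate support.

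**Figure D4:**
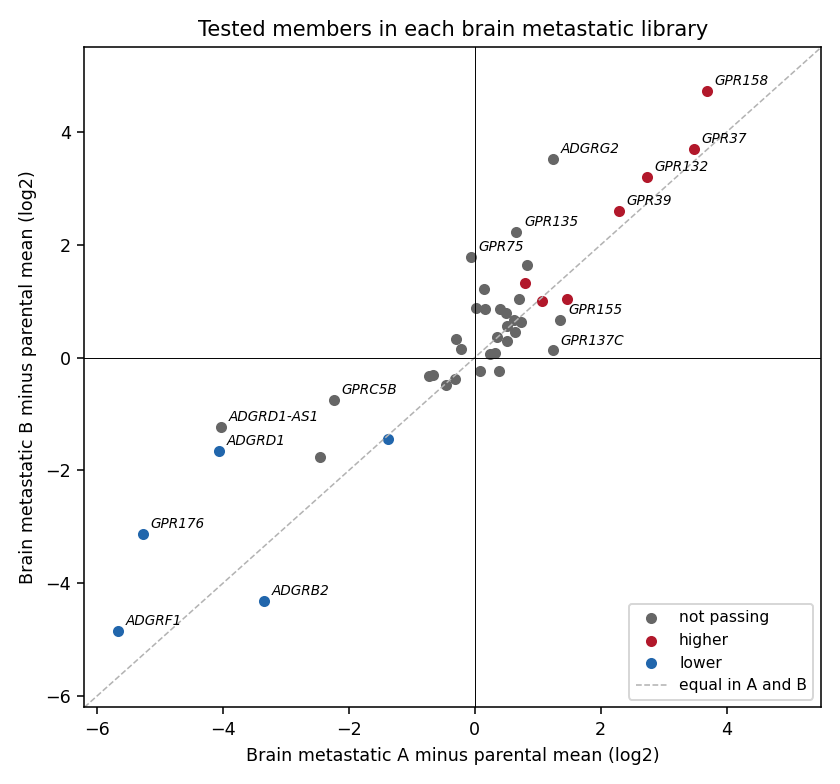
Difference of brain metastatic library A (horizontal axis) and B (vertical axis) from the parental mean, as log2(normalized count + 1), for 43 tested members, coloured by call, with a dashed line where both libraries are equal. ADGRG2, GPR135 and GPR75 lie above the line and GPR137C and GPR155 below it, while GPR37, GPR39 and GPR132 lie near it.

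Leaving out a parental library removed 7 of the 13 calls, among them those of ADGRL2, ADGRE5, ADGRG6, ADGRD1, GPR132 and GPR137B, whether parental A or B was left out (limma adjusted p from 0.0585 to 0.31). In these fits ADGRF1, ADGRB2, GPR176, GPR158, GPR37 and GPR39 were called. The 13 called members had the same direction in every alternative that tested them. Because their libraries did not overlap, leaving out a library could not reverse a sign, so this is no separate support.

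Genes that work with the receptors were counted over lists. The lists were chosen with earlier results of these data known, so their shares are no independent evidence. Of 24 ligands and partners of adhesion receptors, 12 were higher and 3 lower (62.5% called, against 14.4% of all tested genes), and 9 did not pass. Their median log2 fold change was 1.08 against 0.01 for all tested genes. TENM2, a teneurin bound by latrophilins (3.06), and WNT7B, a ligand sensed through ADGRA2 (2.95), rose most, and TGM2, a partner of ADGRG1 (-2.04), and PRNP, a ligand of ADGRG6 (-1.36), fell most among those of at least 1 CPM. Some further genes of this list were chosen after their values were seen, and they do not stand for all latrophilin ligands. Of these, the latrophilin ligands FLRT2 (2.03), TENM1 (1.86) and TENM3 (1.39) and the ADGRD1 ligand gene PTK7 (2.39) were also higher. CD55, the ligand of ADGRE5, did not pass (-0.43, limma adjusted p = 0.227).

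Among 12 G protein alpha subunits, which carry the signal from the receptor, the olfactory-type subunit gene GNAL was higher (log2 fold change 2.30), GNAO1 was lower (-1.12) and 10 did not pass. Among 9 beta and gamma subunits GNG7 was lower (-2.87), 8 did not pass, and none was higher with limma, edgeR, DESeq2 or limma-voom, or at an unadjusted limma p under 0.05. RGS proteins, which shut G proteins off, numbered 12, and RGS16 (2.90) and RGS9 (1.97) were higher, RGS4 (-2.09) was lower and 9 did not pass. Of 11 receptor kinases and arrestins, the arrestin-related ARRDC4 (2.51) and ARRB2, an arrestin that binds activated receptors (1.79), were higher and 9 did not pass. None of these 11 was lower with limma, edgeR, DESeq2 or limma-voom, and 1 was lower at an unadjusted limma p under 0.05. Of 7 adenylyl cyclases and PDE4 phosphodiesterases, the cyclases ADCY3 (-1.55) and ADCY7 (-1.47) were lower and 5 did not pass. None of these 7 was higher with limma, edgeR, DESeq2 or limma-voom, and 1 was higher at an unadjusted limma p under 0.05. Shares called with limma-trend were 16.7% (alpha), 11.1% (beta and gamma), 25.0% (RGS), 18.2% (kinases and arrestins) and 28.6% (cyclases and PDE4). Among all tested genes 14.4% were called, and a share near this is no result about a list.

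Outside the rule, 55 receptors with known ligands were tested, and 15 were higher, 6 were lower and 34 did not pass. This was 38.2% called, against 14.4% of all tested genes, with a median log2 fold change of 0.66. F2RL2, a protease-activated receptor gene, measured 4.99 and HTR2C, a serotonin receptor gene, 4.23 as log2 fold changes (limma adjusted p = 0.00014 and 0.000682). GPER1, the membrane oestrogen receptor gene, fell (-2.49, limma adjusted p = 0.0161). ADORA1, an adenosine receptor gene, also fell, with only 3 brain metastatic reads against 65 parental ones, a ratio of 0.0499 (95% counting interval 0.01003 to 0.152). This list was also chosen with earlier results of these data known, so its share is no independent evidence. No test compared these receptors with the adhesion and orphan receptors.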

How the data were processed

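RNA-seq covered 4 libraries, 2 for each of the lines MDAMB231 and MDAMB231Br. Per the submitters' processing notes, HISAT2, featureCounts and DESeq2 were used with GRCh37. In the sources used here, no version, annotation, strand setting or filter is given. The deposited table holds a read signal, and its values show that the authors divided reads by a size factor per library. All values were whole multiples of a step per library within 0.01 reads (100% of values), so whole reads were recovered. A read was worth 0.0325 to 0.0387 CPM. Unnamed rows (67 of 15346, 0.031% to 0.0369% of reads) were left out.

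Column headers give the line and not the replicate. Genes were kept by filterByExpr (minimum count 10, minimum total 15) and tested with limma-trend on log2(value + 1), which understates changes of low genes, with Benjamini-Hochberg adjustment at 0.05. edgeR's quasi-likelihood test on recovered reads called 2228 genes, limma-trend 2079. Other alternatives were DESeq2, limma-voom, scalings, pseudocounts, filters, length and GC correction and leaving out each library. Some members are counted in the totals but are not reported here by name or shown in the figures. Members and lists were chosen with earlier results of these data known. Full values were given, by rule, for called members whose mean in the higher line reached 1 CPM, for the 5 highest members per kilobase in either line and for any removed member with a 10-fold difference in reads (none). For each list, up to 2 called genes in each direction were named. Of 7 lists, 143 of 356 entries had a row, and RGS5, with 2 rows, was left out. Replicate libraries were not copies (chi-square per degree of freedom 60.7 and 122). Transcript lengths, GC and exon overlaps came from GENCODE 29 (GRCh38) by symbol, and promoters from RefSeq (GRCh38.p14), where 35 of 52 members matched. The test was tried on simulated data. Intervals cover counting error only. Fits used DESeq2 1.42.0, edgeR 4.0.16 and limma 3.58.1 in R 4.3.3, and tables were made in Python 3.11.15.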

Additional observations from a re-analysis of the deposited data

How the results depend on the processing

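The count of receptor genes called higher, 7 with all libraries, was 13 with DESeq2 on recovered reads and ranged from 3 to 17 when a library was left out. The count called lower, 6, was 3 without a filter on low values and ranged from 3 to 8 when a library was left out. Under the other alternatives both counts stayed within 1.5 times the reported ones. DESeq2 also called more of all tested genes, 2910 (1623 higher and 1287 lower), against 2079 (1242 and 837) with limma-trend. Of the 13 called members, 5 (ADGRF1, ADGRB2, GPR158, GPR37 and GPR39) passed in all 14 alternatives. Without the filter, 6 calls were lost. GPR132 was too low to be tested at the filter of 1 CPM. The log2 fold change of GPRC5A, not called, was -0.25 after correction for length and GC and ranged from -0.24 (without brain metastatic A) to 0.38 (without brain metastatic B) when a library was left out. The cause of these differences was not tested. With a library left out, the lone library of a line is assumed to vary like those of the other line. Over all tested genes, 2079 were called, against 586 without the filter, 3475 after correction for length and GC, 421 and 429 without parental A and B, and 5257 and 3147 without brain metastatic A and B. No paired analysis was possible because the columns carry no replicate numbers. With 2 libraries per line and 1 read worth up to 0.0387 CPM, receptors with a few reads in a line are limited by counting error.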
